A study of Mus musculus with 4 samples.

Results

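The heat shock chaperones described here are 10 mouse genes, Hspa1a, Hspa1b, Hspa4, Hspa5, Hspa8, Hsp90aa1, Hsp90ab1, Hsph1, Dnajb1 and Hspb1. They were taken by symbol, with every probe that the array carries for them kept, which gave 17 of 41174 probes for transcripts (the array carries 28632 gene names). All 17 passed the filter on dim probes, among 28347 that passed in all. The mice were C57BL/6J males 10 weeks old, and RNA was taken from their whole amygdala. The 4 groups were P2X7R KO mice given LPS, P2X7R KO mice given saline, wild-type mice given LPS and wild-type mice given saline. LPS is lipopolysaccharide, a bacterial cell wall component, and P2X7R is the ATP-gated channel encoded by P2rx7. Injections were intraperitoneal, with LPS at 7.5 µg per mouse (also given in the labels as 250 µg/kg), and all mice were killed at 6 h. Each group had 4 mice per the labels and 4 one-colour arrays, 16 in all. The labels do not say how the knockout was made, nor which mouse each array holds. P-values therefore reflect only how far arrays scatter within groups. In the main limma fit this scatter was estimated from all 16 arrays together, including groups outside a given comparison.

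Chaperones bind unfolded stretches of other proteins and help them fold, cross membranes or be degraded. HSP70 proteins (Hspa1a, Hspa1b, Hspa8, Hspa5) hold and release clients by hydrolysing ATP. HSP40 proteins such as Dnajb1 deliver clients and stimulate that hydrolysis, and HSP110 proteins (Hspa4, Hsph1) exchange the nucleotide. HSP90 proteins act later on kinases and steroid receptors, and the small protein Hspb1 holds clients without ATP. On heat or other proteotoxic stress, the transcription factor HSF1 binds heat shock elements in promoters and induces Hspa1a, Hspa1b, Hsp90aa1, Dnajb1, Hsph1 and Hspb1. Hspa8 and Hsp90ab1 are the abundant constitutive forms, and Hspa5 is induced by unfolded protein in the endoplasmic reticulum. In brain, Hspb1 is known from reactive astrocytes and blood vessels.

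The sequences of 6 probes are shown first, because the probes of a gene gave different results. They are 5′ to 3′ on the transcript strand as deposited, with G and C in capitals, on build mm9. For Hspa8, on the plus strand of chromosome 9, the 5′ probe lay at chr9:40611142-40611201 and the 3′ probe at chr9:40612674-40612733, 1532 bases on. For Hspa4, on the minus strand of chromosome 11, the most 5′ probe lay at chr11:53094143-53094202. Its middle probe spanned 514 bases at chr11:53075923-53076436, and its most 3′ probe, at chr11:53073347-53073406, is not printed. For Hspa1b, on the minus strand of chromosome 17, the 5′ probe lay at chr17:35095608-35095667 and the 3′ probe at chr17:35094200-35094259. Both Hspa1b probes were listed in the files with RefSeq entries of Hspa1a as well, so the near-identical copies cannot be told apart by them. Whether a probe lies in an exon or a UTR was not analysed here.
Hspa8 5′ probe (A_52_P12877): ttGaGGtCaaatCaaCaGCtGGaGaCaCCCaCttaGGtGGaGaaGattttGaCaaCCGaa
Hspa8 3′ probe (A_51_P170371): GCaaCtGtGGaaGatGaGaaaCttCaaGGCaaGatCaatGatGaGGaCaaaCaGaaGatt
Hspa4 5′ probe (A_52_P617817): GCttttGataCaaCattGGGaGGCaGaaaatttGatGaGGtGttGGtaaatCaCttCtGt
Hspa4 middle probe (A_51_P460676): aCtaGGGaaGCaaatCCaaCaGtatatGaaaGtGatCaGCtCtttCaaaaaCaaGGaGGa
Hspa1b 5′ probe (A_52_P304902): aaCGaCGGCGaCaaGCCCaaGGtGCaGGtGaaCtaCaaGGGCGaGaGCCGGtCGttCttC
Hspa1b 3′ probe (A_52_P52803): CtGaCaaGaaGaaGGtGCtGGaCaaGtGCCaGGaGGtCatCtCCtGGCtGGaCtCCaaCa

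Promoter windows from RefSeq (GRCm38.p6, 250 bases before to 50 after a start site) were held for 7 of the 10 genes. Heat shock elements of 2 units (GAA and TTC, in either order, with 2 bases between them, both strands) were found in 4 of these, Hspa1a, Hspa1b, Hspb1 and Hsph1, against 15.1% of all 32851 promoters. Elements of 3 units (GAA, TTC and GAA, or TTC, GAA and TTC, again 2 bases apart, each of which also holds the 2-unit form) were found in Hsph1 alone of the 7, against 0.603% of all promoters. The ER stress element (CCAAT, 9 bases, CCACG) was found in Hspa5 alone of the 7, against 0.119%. A match is a description of these letters and not of a bound site. The stretches of the Hspb1, Hspa1b and Hspa5 promoters that hold the matches, in capitals, are printed because Hspb1 had the largest LPS differences of the set toward higher values and the others serve beside it. They lie at chr5:135887789-135887848 (plus strand), chr17:34959309-34959368 (minus strand) and chr2:34772010-34772059 (plus strand).
Hspb1 promoter: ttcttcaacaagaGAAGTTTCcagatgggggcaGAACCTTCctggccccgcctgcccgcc
Hspa1b promoter: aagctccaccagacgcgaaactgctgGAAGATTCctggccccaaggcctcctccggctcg
Hspa5 promoter: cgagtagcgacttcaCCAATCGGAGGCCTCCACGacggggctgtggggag

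Some facts of the whole series touch every result below. Levels are log2 of the processed spot intensity minus that of the array's 75th percentile, which ranged from 345.9 to 1164.7, with 58.1% to 71.9% of probes well above background. KO arrays were all on slides 3 and 4 in 1 scan session and wild-type (WT) arrays on slides 1 and 2 in another, so genotype and scan session cannot be told apart. The 75th percentile was 383.4 to 614.0 on KO LPS arrays and 581.3 to 1062.8 on WT LPS arrays. After saline it was 345.9 to 577.9 in KO and 744.5 to 1164.7 in WT. The lowest level of a probe well above background was −5.54 to −4.28 on KO arrays and −6.33 to −5.58 on WT arrays. The floor for dim probes thus differed between genotypes, and its part in their differences was not tested. The mean level of 10 LPS-induced genes was 2.20 to 2.70 on KO LPS arrays against −4.03 to −3.60 on KO saline arrays. In WT it was −0.43, 1.83, 1.73 and −0.06 on LPS replicates 1 to 4. It was 1.23 and 1.39 on WT saline replicates 1 and 2 (slide 1) and −4.59 and −4.67 on saline replicates 3 and 4. WT LPS replicates 1 and 4 lay below saline replicates 1 and 2, and all WT LPS arrays lay above saline replicates 3 and 4. WT saline replicates 1 and 2 thus go against their label. For the 17 probes, printed limma differences are also given without them where a call or direction changed or values moved by over 1.5 times. The P2rx7 probe with the higher signal was lower in KO by −1.65 ± 0.25 (log2, SE) after LPS and −1.51 ± 0.25 after saline, and the other P2rx7 probe was not called. All 7 neuronal markers, and 8 of 10 amygdala markers, lay well above background on all 16 arrays, with Cdh9 above it on 5 arrays and no probe for Crh.

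**Figure D1:**
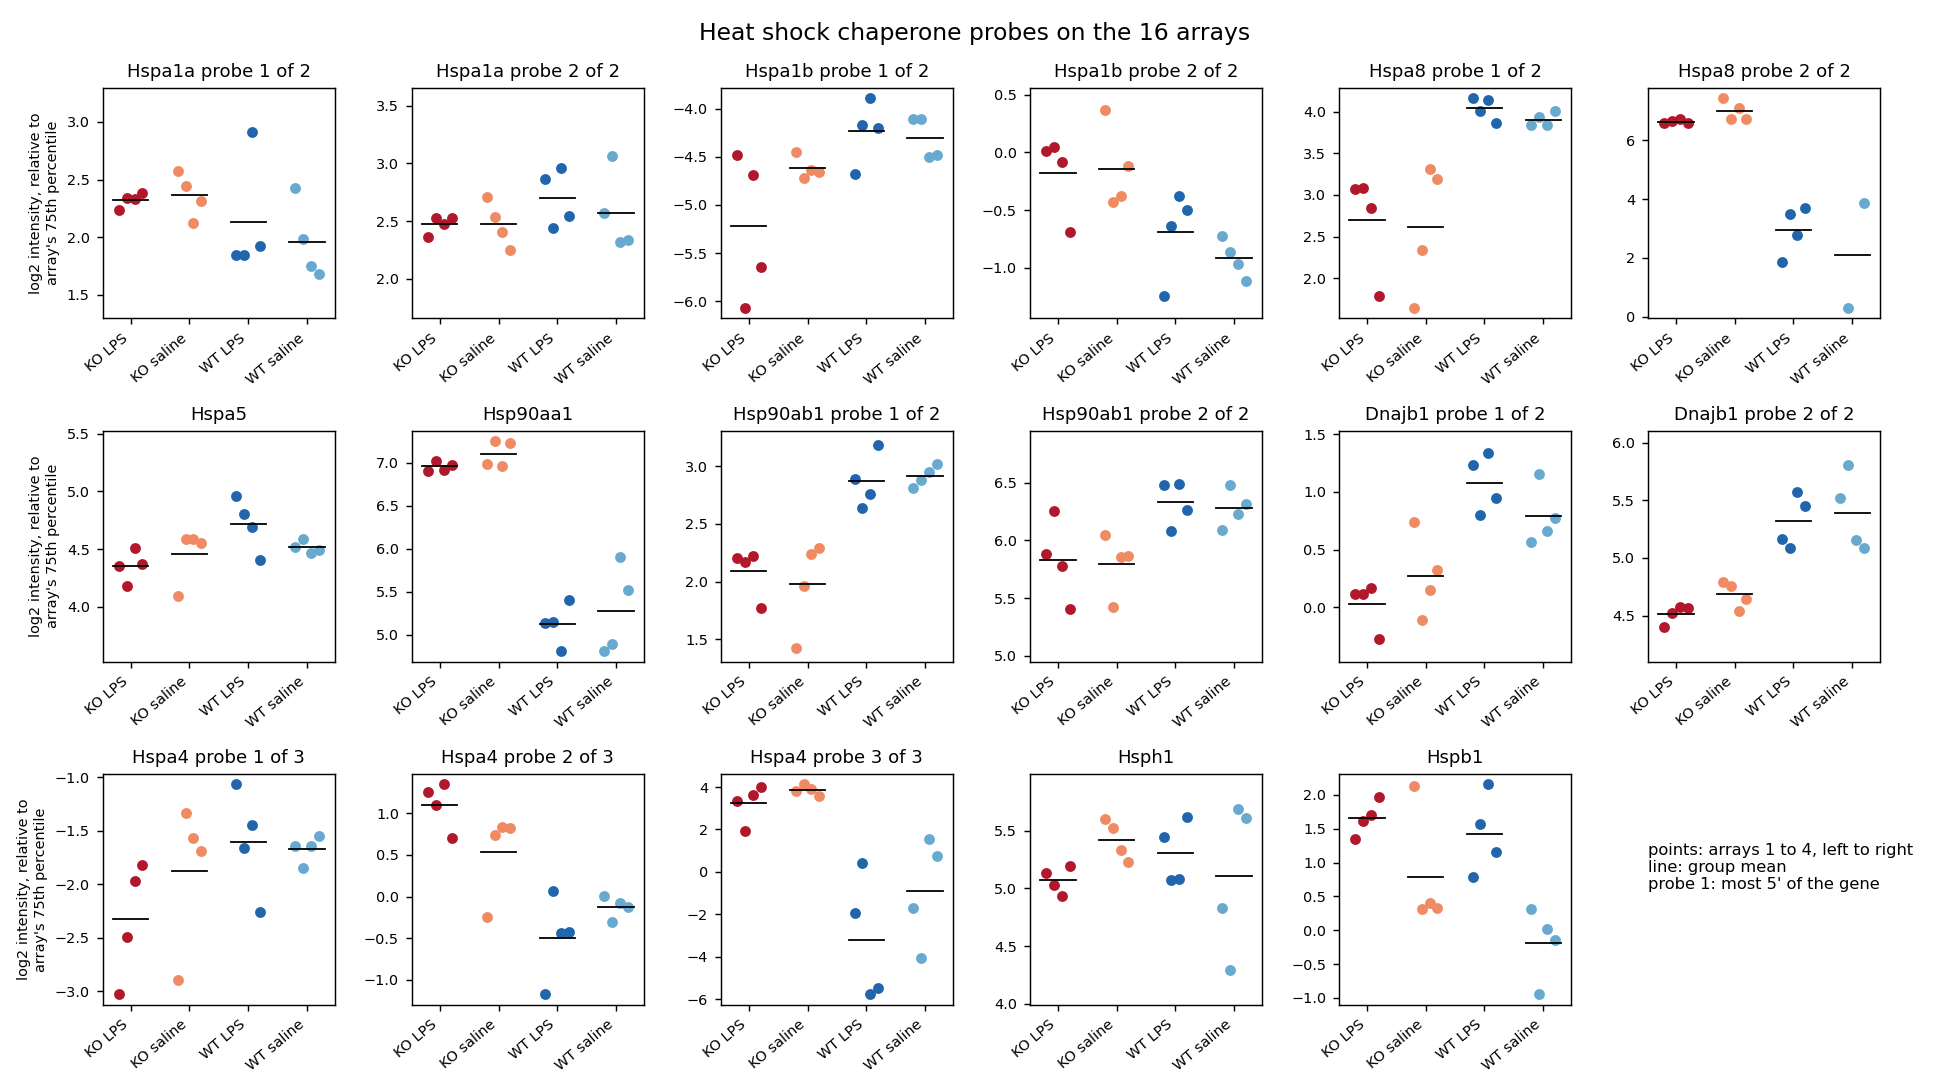
Level of each of the 17 chaperone probes on every array (log2 intensity relative to the array's 75th percentile), by group, with the group mean as a line and probes numbered 5′ to 3′ within a gene. KO arrays lie above WT arrays for Hsp90aa1 and the 3′ probe of Hspa8 and below them for the 5′ probes of Hspa8 and Hsp90ab1. Only 2 WT saline arrays are plotted for the 3′ probe of Hspa8, since spots on the other 2 were outliers.

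The first question was whether chaperone genes respond to LPS in the amygdala of either genotype. None of the 17 probes passed the test (limma, Benjamini-Hochberg adjusted p under 0.05 over all probes) for LPS against saline in KO, where 3.04% of all tested probes did. Adjusted p over the 17 ranged from 0.338 to 0.996. None of the 17 passed in WT either, where 0% of all tested probes did, although 1777 had an unadjusted p under 0.05 in limma. Of the chaperone probes, 1 in each genotype had an unadjusted p under 0.05, in both cases that of Hspb1. The median LPS difference of the 17 was −0.10 in KO, beside −0.08 for all probes, and 0.13 in WT, beside −0.03 for all probes. The standard errors of these differences ranged from 0.16 (Hspa5) to 1.25 (Hspa4, 3′ probe), so that changes of the size of the error would not have been detectable. With WT saline replicates 1 and 2 left out, none of the 17 was called in WT either, where 2.29% of all tested probes then were. Without those arrays the WT difference of the 3′ Hspa8 probe was −0.92, resting on 1 saline array, against 0.87 with them. That of Hsp90aa1 was −0.58 against −0.15, and that of the most 3′ Hspa4 probe −4.32 against −2.30, none of them called. The WT difference of the 3′ Dnajb1 probe turned from −0.07 to 0.20, and that of the most 5′ Hspa4 probe from 0.06 to −0.01, neither called.

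Hspb1, the small chaperone, had the highest LPS difference of the 17 probes in both genotypes. Its probe spanned 188 bases at chr5:136364927-136365114 (mm9), over the gene's plus strand. Its level was 1.34, 1.62, 1.70 and 1.97 on the KO LPS arrays, against 2.13, 0.31, 0.40 and 0.33 on the KO saline arrays. In WT it was 0.79, 1.57, 2.15 and 1.16 after LPS, against 0.32, −0.95, 0.02 and −0.15 after saline. The KO groups overlapped through 1 array, saline replicate 1, whereas in WT all 4 LPS arrays lay above all 4 saline arrays. Groups were without overlap for 10.5% of all tested probes in KO and 4.70% in WT. The LPS difference was 0.87 ± 0.40 (log2, SE, n = 4 per group, limma adjusted p = 0.338) in KO and 1.61 ± 0.40 (adjusted p = 0.489) in WT. Without KO saline replicate 1 it was 1.31 in KO (adjusted p = 0.0337), which passed the test, and within slide 3 it was 1.16 (adjusted p = 0.0477). Within slide 4, which holds that array, it was 0.57 (adjusted p = 0.968). Without WT saline replicates 1 and 2 the WT difference was 1.48 (adjusted p = 0.143), and within slides 1 and 2 it was 1.79 and 1.43. The difference between the genotypes' responses was −0.74 ± 0.56 (limma interaction, adjusted p = 0.924). The authors' deposited table lists this probe as 1.82-fold up with LPS in KO and 3.04-fold up in WT.

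KO saline replicate 1 also stood apart in markers of other tissues. The mean of 5 choroid plexus genes was −1.94 on that array, against −3.95 to −3.44 on the other 3 KO saline arrays, and that of 4 blood genes was 0.27, against −0.57 to −0.51. Across the KO groups the blood genes had 0.17 to 1.40 after LPS against −0.57 to 0.27 after saline. The mean of 7 endothelial genes was −1.85 to −1.61 after LPS against −1.32 to −0.56 after saline in KO, without overlap, and −1.68 to −1.05 against −1.24 to −0.23 in WT. That of 7 microglial genes was −0.75 to −0.41 after LPS against 0.05 to 0.94 after saline in KO, without overlap, and −0.74 to −0.20 against −0.65 to 0.78 in WT. The overlap in WT came from saline replicates 1 and 2, with −1.24 and −1.07 (endothelial) and −0.57 and −0.65 (microglial). Saline replicates 3 and 4 had −0.31 and −0.23, and 0.78 and 0.78, above all WT LPS arrays. The part of these in the Hspb1 values was not tested. In bulk tissue, more cells of a type and more RNA per cell cannot be told apart.

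Hsph1, an HSP110 nucleotide exchange factor, was the 1 chaperone whose KO groups did not overlap with LPS. That was 1 of 17 chaperone probes, where 10.5% of all tested probes had KO groups without overlap. The Hsph1 level was 5.14, 5.03, 4.93 and 5.19 on KO LPS arrays, against 5.60, 5.52, 5.33 and 5.23 on KO saline arrays. The nearest arrays of the KO groups were thus close, at 5.19 and 5.23. The difference was small, −0.35 ± 0.26 (limma adjusted p = 0.578), and did not pass the test. In WT the levels were 5.44, 5.07, 5.08 and 5.62 after LPS, against 4.83, 4.30, 5.69 and 5.61 after saline, with a difference of 0.20 ± 0.26 (adjusted p = 0.997), which turned to −0.34 (adjusted p = 0.491) without WT saline replicates 1 and 2. The WT saline values were lower on replicates 1 and 2 than on replicates 3 and 4, the same split as in the LPS-induced genes. For the stress-inducible HSP70 genes, Hspa1a had LPS differences of −0.04 ± 0.23 and −0.00 ± 0.19 in KO and 0.17 ± 0.23 and 0.13 ± 0.19 in WT, over probes that overlap by 30 bases. The WT values were 0.41 and 0.38 without WT saline replicates 1 and 2. None of these passed the test. Hspa5, the chief HSP70 of the endoplasmic reticulum, had −0.10 ± 0.16 in KO (adjusted p = 0.805) and 0.20 ± 0.16 in WT (adjusted p = 0.942).

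**Figure D2:**
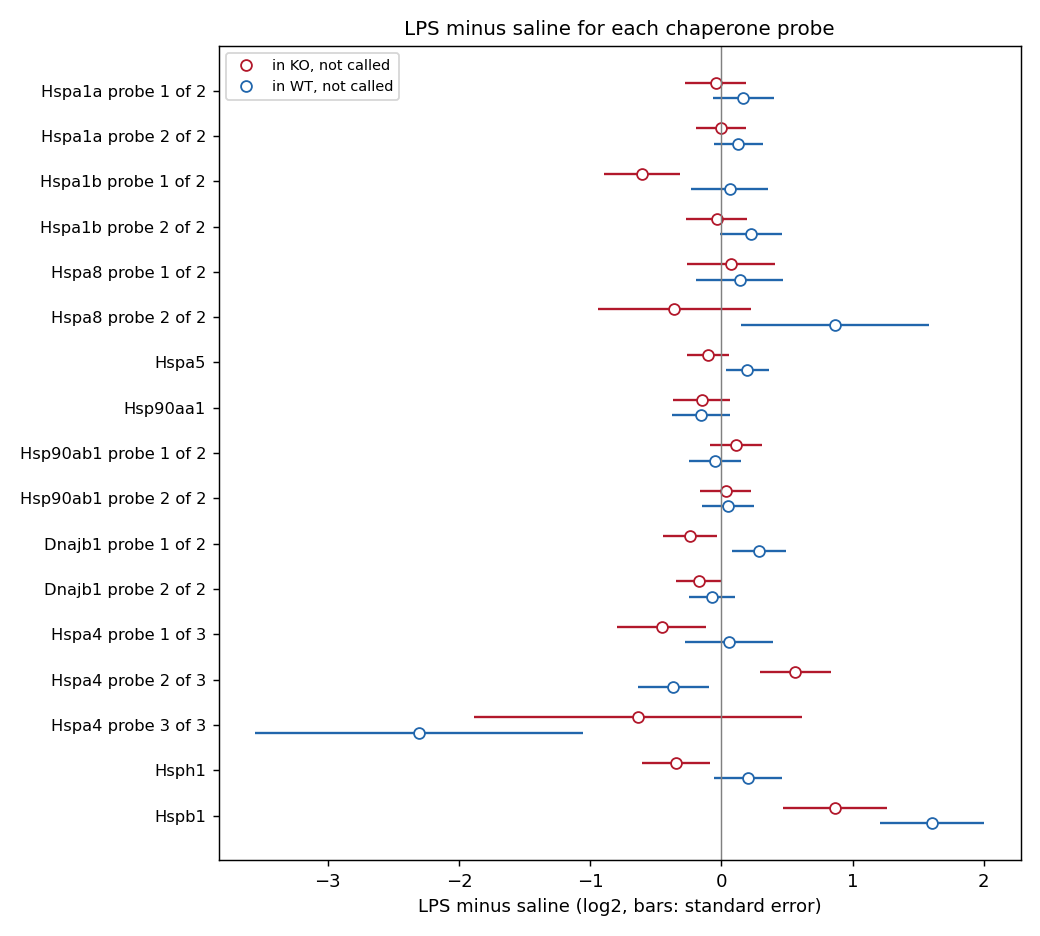
LPS minus saline for each chaperone probe (log2, bars are 1 standard error of the limma model) in KO and in WT mice, with probes down the page 5′ to 3′ within a gene. Every symbol is open because none of the 17 probes passed an adjusted p of 0.05 in either genotype, and Hspb1 has the highest value in both.

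The interaction (the response to LPS in KO minus that in WT) asked whether the receptor's absence altered the response. No chaperone probe was called, and 0.00706% of all tested probes were. The lowest adjusted p of the 17 was 0.708, for the middle probe of Hspa4 (0.93 ± 0.39), which also gave the 1 unadjusted p under 0.05 in limma. That probe had 1.26, 1.11, 1.35 and 0.70 on KO LPS arrays against −0.24, 0.74, 0.83 and 0.82 on KO saline arrays, and its WT LPS levels were −1.17, 0.07, −0.44 and −0.43 against 0.01, −0.30, −0.07 and −0.13 after saline. The KO saline group was set low by replicate 1.

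The second question was whether chaperone levels differ between the genotypes. After LPS, 10 of 17 probes were called for KO against WT, 4 higher and 6 lower, where 48.4% of all tested probes were called, 24% higher and 24.4% lower. After saline, 9 of 17 were called, 5 higher and 4 lower, where 52.1% of all tested probes were called, 26.5% higher and 25.5% lower. The counts of chaperone probes were thus near the background of the array. The median difference of the 17 was −0.23 after LPS, beside −0.03 for all probes, and −0.06 after saline, beside −0.02. Without WT saline replicates 1 and 2, 5 of the 17 were called after saline, where 36.6% of all tested probes were (the 5 being both Hspa8 probes, Hsp90aa1, the 5′ probe of Hsp90ab1 and the 3′ probe of Hspa1b). All KO arrays lay above or all below the WT arrays for 8 of 17 probes after LPS and for 8 of 17 after saline, and this held for 52.3% and 47.4% of all tested probes. The KO groups after LPS and after saline each have their own WT group, so these comparisons share no arrays, but they share the slides and the scan sessions.

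Hsp90aa1, the stress-inducible HSP90, was higher in KO. Its level was 6.91, 7.02, 6.92 and 6.98 on KO LPS arrays, against 5.14, 5.15, 4.82 and 5.41 on WT LPS arrays. After saline it was 6.99, 7.25, 6.96 and 7.24 in KO, against 4.81, 4.90, 5.91 and 5.52 in WT. Every KO array lay above every WT array. The difference was 1.83 ± 0.22 (log2, SE, n = 4 per group, limma adjusted p = 1.37e-05) after LPS and 1.82 ± 0.22 (adjusted p = 1.38e-05) after saline. With values corrected for the base composition of the probes it was 1.10 and 1.17, and without the WT saline replicates that stand apart it was 1.40 after saline. It was called in all 28 alternatives tried for each comparison.

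The constitutive HSP90 gene, Hsp90ab1, had lower levels in KO by both of its probes. The 5′ probe had 2.20, 2.17, 2.22 and 1.78 on KO LPS arrays, against 2.89, 2.64, 2.76 and 3.19 on WT LPS arrays, and 1.43, 1.96, 2.24 and 2.29 on KO saline arrays, against 2.81, 2.88, 2.95 and 3.02 on WT saline arrays. No KO array reached a WT array. The difference was −0.78 ± 0.20 (limma adjusted p = 0.00478) after LPS and −0.93 ± 0.20 (adjusted p = 0.00122) after saline, and it passed in all 27 alternatives tried for each. The 3′ probe, 1277 bases on, gave −0.50 ± 0.20 (adjusted p = 0.0464) after LPS and −0.48 ± 0.20 (adjusted p = 0.0501) after saline, values on either side of the threshold. It passed in 10 of 28 alternatives after LPS and in 8 of 28 after saline. Without WT saline replicates 1 and 2 it did not pass after LPS (limma adjusted p = 0.052). The Hsp90aa1 probe was thus called higher and the 5′ Hsp90ab1 probe lower in KO. Of all tested probes, 24% were called higher and 24.4% lower after LPS, and 26.5% and 25.5% after saline.

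Dnajb1, the HSP40 partner of inducible HSP70, was lower in KO by both probes. At the 3′ probe the levels were 4.40, 4.52, 4.58 and 4.56 on KO LPS arrays, against 5.17, 5.09, 5.57 and 5.45 on WT LPS arrays, and 4.80, 4.76, 4.54 and 4.64 on KO saline arrays, against 5.52, 5.80, 5.16 and 5.08 on WT saline arrays. Neither pair of groups overlapped. The 3′ difference was −0.80 ± 0.18 (limma adjusted p = 0.00175) after LPS and −0.70 ± 0.18 (adjusted p = 0.00397) after saline. The 5′ probe, 1435 bases before it, gave −1.05 ± 0.21 (adjusted p = 0.00075) after LPS and −0.52 ± 0.21 (adjusted p = 0.0459) after saline. With base composition corrected, the 3′ probe gave −0.38 (adjusted p = 0.0671) after LPS and −0.32 (adjusted p = 0.114) after saline. Without WT saline replicates 1 and 2, neither probe passed after saline (−0.43, adjusted p = 0.0785, for the 3′ probe and −0.45, adjusted p = 0.167, for the 5′ probe). The 5′ probe passed in all 27 alternatives tried after LPS and in 10 of 27 after saline.

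Hspa8, the constitutive HSP70 also known for uncoating clathrin vesicles at synapses, gave opposite results from its probes. The 3′ probe had 6.57, 6.65, 6.73 and 6.58 on KO LPS arrays, against 1.85, 3.50, 2.77 and 3.69 on WT LPS arrays. After saline it had 7.43, 6.72, 7.09 and 6.72 in KO, against 0.30 and 3.87 on WT replicates 2 and 4, since its spots on replicates 1 and 3 were marked as outliers and dropped from the fit. All KO values lay above all WT values, and the WT values differed among themselves more than the KO values did. The difference was 3.68 ± 0.58 (limma adjusted p = 0.000219) after LPS and 4.90 ± 0.71 (adjusted p = 0.00011, n = 4 and 2) after saline. With the outlier spots kept, a choice made after the data were seen, it was 4.53 after saline. Without WT saline replicates 1 and 2 it was 3.12, from 1 WT saline array that the fit assumes to vary like the arrays of the other groups (limma adjusted p = 0.00099).

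The 5′ probe of Hspa8 had 3.07, 3.08, 2.84 and 1.79 on KO LPS arrays, against 4.17, 4.01, 4.15 and 3.87 on WT LPS arrays. After saline it had 1.64, 2.33, 3.32 and 3.19 in KO, against 3.84, 3.94, 3.85 and 4.01 in WT. Here every KO array lay below every WT array, and the KO values were the more scattered. The difference was −1.35 ± 0.33 (limma adjusted p = 0.00388) after LPS and −1.29 ± 0.33 (adjusted p = 0.00486) after saline. Both Hspa8 probes kept these signs and passed in every alternative tried, 28 for the 3′ probe and 27 for the 5′ probe in each comparison, the fit with 1 WT saline array included. With base composition corrected they gave 2.14 and −1.88 after LPS and 3.29 and −1.82 after saline. The authors' deposited table lists the 3′ probe as 12.8-fold up in KO after LPS and 23.01-fold up after saline, and the 5′ probe as 2.55-fold down and 2.45-fold down. Of all genes with more than 1 tested probe, 13.5% had probes called in both directions after LPS and 14.6% after saline, and Hspa8 was the 1 chaperone gene among them in each case.

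Hspa4, the other HSP110 gene, had 3 probes whose differences in the main setting ran from lower to higher along the gene. The most 5′ probe was not called in either comparison. With base composition corrected, the differences from 5′ to 3′ were −0.37, 0.18 and 4.98 after LPS. After saline they were 0.18, −0.70 and 3.42, so the order did not hold there. The most 3′ probe had 3.35, 1.93, 3.63 and 3.98 on KO LPS arrays, against −1.93, 0.43, −5.77 and −5.48 on WT LPS arrays, where it lay well above background on 2 of the 4. After saline it had 3.82, 4.12, 3.93 and 3.57 in KO, against −1.73, −4.07, 1.53 and 0.73 in WT. The groups did not overlap, while the WT arrays spread over several log2 units (SD 2.98 after LPS and 2.54 after saline, n = 4 each). The difference was 6.41 ± 1.25 (limma adjusted p = 0.000713) after LPS and 4.74 ± 1.25 (adjusted p = 0.00538) after saline. Without WT saline replicates 1 and 2 the saline difference was 2.73 (adjusted p = 0.11) and no longer passed. In the authors' deposited table this probe is 85.3-fold up in KO after LPS and 26.7-fold up after saline.

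The middle probe of Hspa4 gave 1.59 ± 0.27 (limma adjusted p = 0.000264) after LPS and 0.66 ± 0.27 (adjusted p = 0.0526) after saline. With base composition corrected it gave 0.18 (adjusted p = 0.555) after LPS and −0.70 (adjusted p = 0.0188) after saline, so its direction after saline turned. The most 5′ probe, 20796 bases from the most 3′ probe, gave −0.72 ± 0.34 (adjusted p = 0.0909) after LPS and −0.20 ± 0.34 (adjusted p = 0.632) after saline, neither of which passed. Its levels were −3.03, −2.49, −1.97 and −1.82 on KO LPS arrays against −1.07, −1.66, −1.45 and −2.26 on WT LPS arrays, which overlap.

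**Figure D3:**
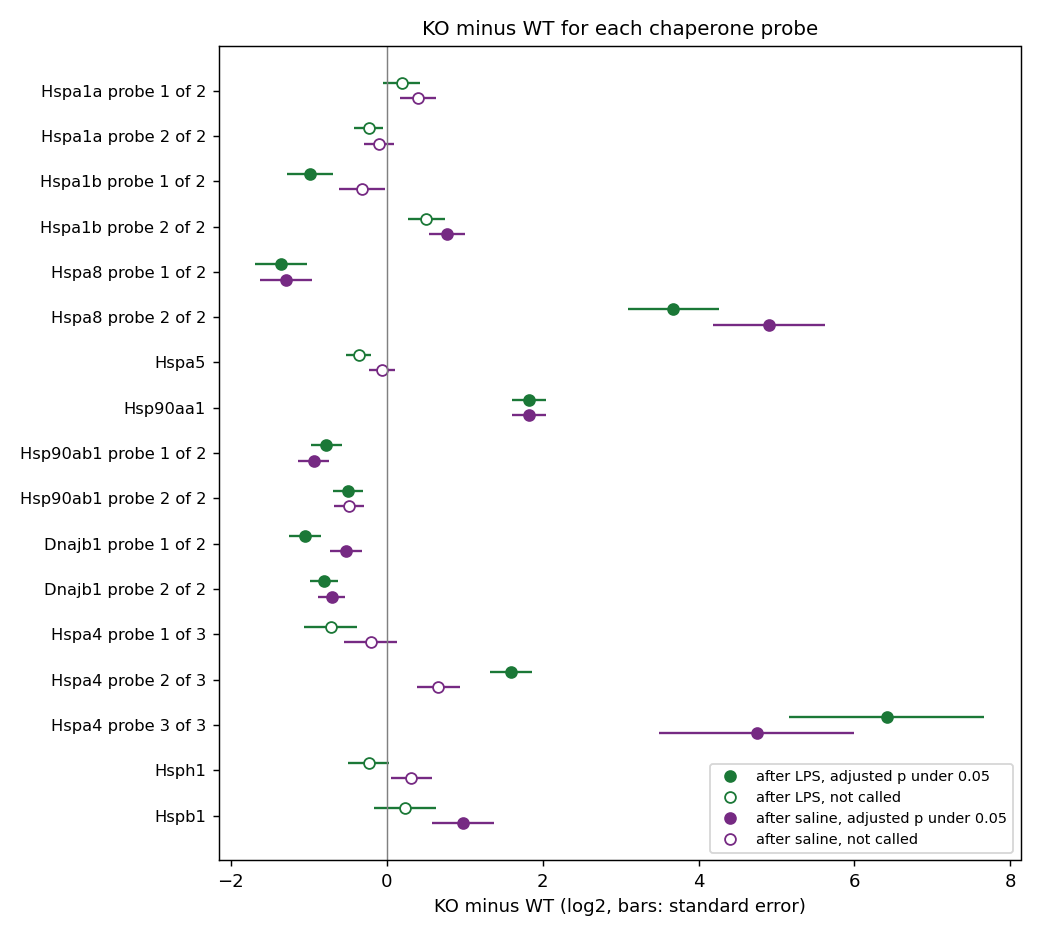
KO minus WT for each chaperone probe (log2, bars are 1 standard error of the limma model) after LPS and after saline, with filled symbols where the adjusted p was under 0.05 and probes down the page 5′ to 3′ within a gene. The 3′ probes of Hspa8 and Hspa4 lie at 3.68 to 6.41 while the 5′ probes of the same genes lie below 0.

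The inducible HSP70 copies showed smaller differences. For Hspa1a neither probe was called, with 0.19 ± 0.23 and −0.23 ± 0.19 after LPS and 0.40 ± 0.23 and −0.10 ± 0.19 after saline (limma adjusted p from 0.158 to 0.686 over the 4). The saline values were 0.65 (adjusted p = 0.0763) and 0.15 (adjusted p = 0.578) without WT saline replicates 1 and 2, so that the second turned. With base composition corrected, however, the 5′ probe gave 0.77 (adjusted p = 0.0141) and 1.03 (adjusted p = 0.00224), and the other probe 0.36 (adjusted p = 0.0875) and 0.49 (adjusted p = 0.0235). The 3′ probe of Hspa1b had 0.01, 0.05, −0.08 and −0.69 on KO LPS arrays against −1.24, −0.64, −0.37 and −0.50 on WT LPS arrays, and 0.37, −0.43, −0.38 and −0.12 on KO saline arrays against −0.72, −0.86, −0.96 and −1.12 on WT saline arrays. It was higher in KO after saline, by 0.77 ± 0.23 (adjusted p = 0.012), where the groups did not overlap, and gave 0.51 ± 0.23 (adjusted p = 0.0827) after LPS. The saline difference fell to 0.23 (adjusted p = 0.388) with base composition corrected and to 0.35 (adjusted p = 0.186) under normexp background correction. The 5′ probe of Hspa1b was dim, with 1 of 4 KO LPS arrays and 3 of 4 KO saline arrays well above background, against all 4 WT LPS and all 4 WT saline arrays. It was lower in KO after LPS, by −0.98 ± 0.29 (adjusted p = 0.0118), and gave −0.32 ± 0.29 (adjusted p = 0.377) after saline, or −0.13 without WT saline replicates 1 and 2. Under normexp background correction, which moved the median of all probes by 0.16 after LPS and 0.52 after saline, these became 0.015 and 1.20, so that its direction turned.

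Among the remaining members, Hspa5 gave −0.36 ± 0.16 (limma adjusted p = 0.0805) after LPS and −0.06 ± 0.16 (adjusted p = 0.777) after saline, or −0.02 without WT saline replicates 1 and 2. Its levels were 4.35, 4.18, 4.51 and 4.37 on KO LPS arrays, against 4.96, 4.80, 4.69 and 4.40 on WT LPS arrays. Hsph1 gave −0.23 ± 0.26 (adjusted p = 0.483) after LPS and 0.32 ± 0.26 (adjusted p = 0.316) after saline, neither of which passed, and the saline value turned to −0.22 (adjusted p = 0.403) without WT saline replicates 1 and 2. Hspb1 gave 0.24 ± 0.40 (adjusted p = 0.639) after LPS and 0.98 ± 0.40 (adjusted p = 0.0493) after saline. The Hspb1 call after saline was lost without KO saline replicate 1, where the difference was 0.53 (adjusted p = 0.166), and without WT saline replicates 1 and 2, where it was 0.86 (adjusted p = 0.169). It passed in 10 of 28 alternatives.

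Markers of other cell types also differed between the genotypes. The mean of 9 oligodendrocyte genes was 1.12 to 1.29 on KO LPS arrays against 1.48 to 3.07 on WT LPS arrays, and 1.14 to 1.64 on KO saline arrays against 2.09 to 3.24 on WT saline arrays. That of 9 hippocampal genes was −1.76 to −1.55 against −1.24 to −1.0 after LPS, and −1.84 to −1.57 against −1.17 to 0.21 after saline. That of 8 striatal genes was −1.03 to −0.77 on KO LPS arrays against −0.51 to 0.90 on WT LPS arrays, and −1.32 to −0.81 on KO saline arrays against 0.09 to 0.76 on WT saline arrays. None of these groups overlapped, and single tested probes did not overlap for 52.3% after LPS and 47.4% after saline. Neuronal genes (3.25 to 3.43 in KO, 2.97 to 3.22 in WT) did not overlap after LPS but did after saline. The same held for blood genes (0.17 to 1.40 in KO, −1.23 to −0.09 in WT after LPS). Astrocyte, amygdala, microglial, endothelial and choroid plexus genes overlapped in both comparisons. The part of the marker differences in the chaperone differences was not tested.

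The disagreement between probes was tested directly. For each of 8 pairs of probes of a chaperone gene, the level of the more 3′ probe minus that of the other was taken on each array, and KO was compared with WT by a 2-sided exact permutation test. The test treats arrays as exchangeable. Each genotype had its own slides and scan session, so the test cannot tell genotype apart from these. In 9 of 16 tests the p was 0.0286, the smallest that 4 against 4 arrays can give. All tests of Hspa4 pairs, which share probes and so are not independent, were among these. With 4 against 4 arrays this p means that the genotypes did not overlap, which was common over all genes, as given below. After Benjamini-Hochberg adjustment over the 16 tests the lowest p was 0.0508, so no test passed. In 16 tests with this floor the adjusted p passes once 10 are at the floor, so the adjusted result turns on 1 more test: 10 were there under normexp or with outlier spots kept, and 11 with base composition corrected. In Hspa8 the 3′ minus 5′ difference was 3.93 in KO and −1.10 in WT after LPS (exact p = 0.0286), and 4.37 in KO and −1.89 in WT after saline (exact p = 0.0667, the smallest for 4 against 2 arrays). In Hspa4 the most 3′ minus the most 5′ probe gave 5.55 in KO and −1.58 in WT after LPS, and 5.73 in KO and 0.78 in WT after saline (exact p = 0.0286 for each). In Hspa1b it gave 5.04 in KO and 3.55 in WT after LPS, and 4.48 in KO and 3.38 in WT after saline (exact p = 0.0286 for each). Hsp90ab1 gave 0.28 (exact p = 0.229) and 0.45 (exact p = 0.0857) for KO minus WT after LPS and after saline, and Dnajb1 gave 0.24 (exact p = 0.257) and −0.19 (exact p = 0.429).

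In 3 of the 5 chaperone genes with probes at least 200 bases apart, Hspa8, Hspa4 and Hspa1b, the arrays of the genotypes did not overlap in this probe difference, after LPS and after saline alike. The same held for 50% of 5834 such genes of the array after LPS and for 47.4% after saline, so disagreement of this kind was common on these arrays. The more 3′ probe had the higher KO minus WT difference in 5 of the 5 chaperone genes after LPS and in 4 of 5 after saline, against 51.9% and 50.4% of all such genes. Over the other genes, the median shift of the 3′ minus 5′ difference of an array from the mean of all arrays was −0.05 to 0.10 on KO LPS arrays, −0.08 to 0.10 on KO saline arrays, −0.07 to 0.04 on WT LPS arrays and −0.10 to 0.00 on WT saline arrays. The part of such shifts in the chaperone differences was not tested.

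The base composition of a probe moved with the genotype difference over the whole array. Among all tested probes, those with 21 to 23 G and C bases of 60 had a median KO minus WT of −0.24 after LPS and −0.30 after saline. Those with 33 to 35 had 0.36 and 0.49, and those with 39 to 52 had 0.85 and 0.94. Of the chaperone probes with the highest differences, the most 3′ Hspa4 probe held 19 G and C bases, Hsp90aa1 21 and the 3′ Hspa8 probe 24. The base composition correction, fitted on each array to counts of A, C and G and their squares, lowered these differences. After LPS and after saline, the most 3′ Hspa4 probe went from 6.41 and 4.74 to 4.98 and 3.42. Hsp90aa1 went from 1.83 and 1.82 to 1.10 and 1.17, and the 3′ Hspa8 probe from 3.68 and 4.90 to 2.14 and 3.29. The lowest values were those of the 5′ probe of Hspa8, with 27 G and C bases, after both treatments. The correction moved them from −1.35 and −1.29 to −1.88 and −1.82. With base composition corrected, 9 of the 17 probes were called after LPS, where 42.6% of all tested probes were, and 11 after saline, where 46.3% were. The part of base composition in the chaperone differences was not tested further.

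**Figure D4:**
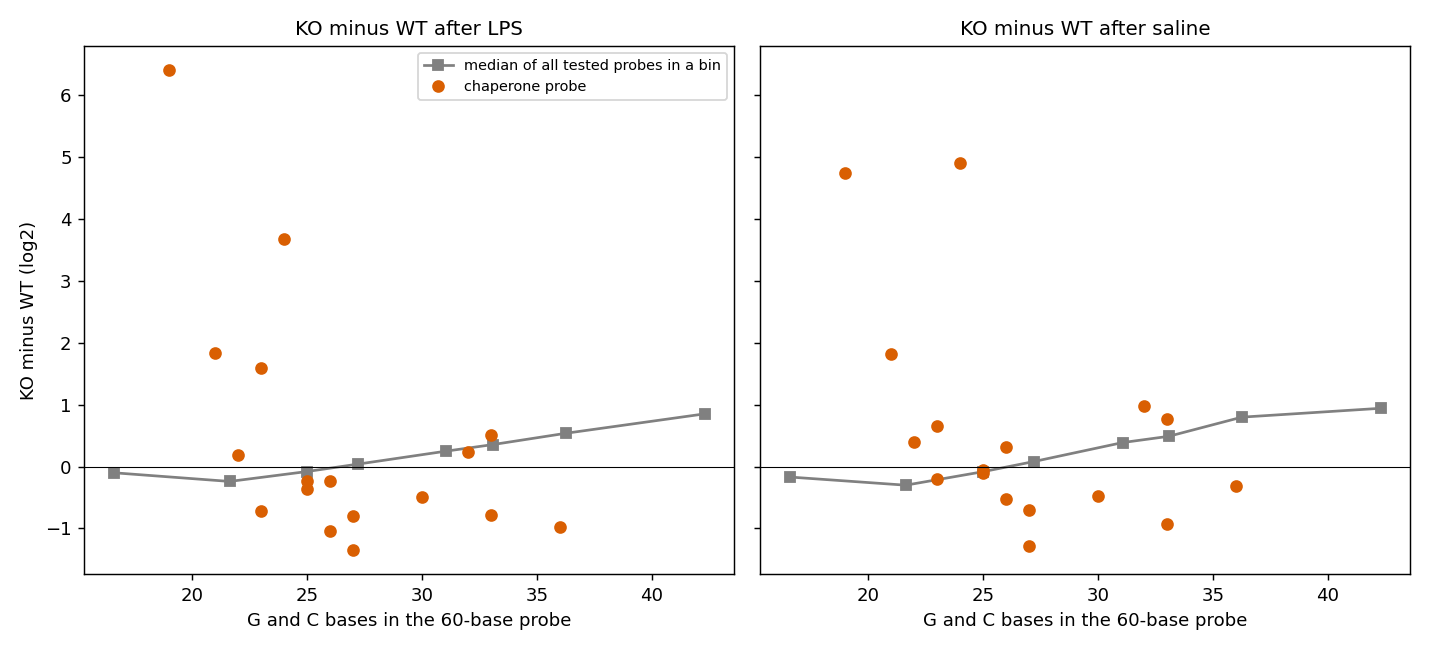
KO minus WT (log2) of each chaperone probe against its number of G and C bases out of 60, after LPS and after saline, with the median of all tested probes in 8 bins of base composition as squares. The medians reach 0.85 and 0.94 in the bin with the most G and C, and the highest chaperone values, 6.41 and 4.90, belong to probes with 19 and 24 G and C bases. No value shown is corrected for base composition.

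The rest of the chaperone network was read from a list of 48 other chaperones, co-chaperones and their regulators, with 1 probe a gene (the brightest tested), of which 47 were tested. With LPS in KO, 2 were called higher and 2 lower, where 3.41% of all genes were called, and in WT none was, where 0% of genes were and 5 of the 47 had an unadjusted p under 0.05 in limma. Fkbp5, a glucocorticoid-induced co-chaperone of HSP90, rose with LPS in KO by 1.91 ± 0.41 (limma adjusted p = 0.0162), with means of 1.88 after LPS and −0.03 after saline, and 1 of its 2 other probes was called the same way. Bag3, a nucleotide exchange factor of HSP70 in selective autophagy, rose by 1.19 ± 0.25 (adjusted p = 0.0142), with 0.70 after LPS and −0.49 after saline, and its other probe was not called. Hspa12b, a distant HSP70 relative known from endothelium, fell by 1.85 (SE 0.41, adjusted p = 0.0199), and the small heat shock protein gene Hspb3 fell by 1.11 (SE 0.29, adjusted p = 0.046). In WT, Fkbp5 had means of 1.26 after LPS and −0.05 after saline, and Bag3 0.59 and −0.02. Hspa12b had −2.12 and −1.71 in WT, and Hspb3 −1.75 and −0.61. These WT saline means include replicates 1 and 2. The endothelial markers, given above, were also lower after LPS in KO. The count of 4 became 1 to 2 when KO LPS replicate 1, 2 or 3, or KO saline replicate 1 or 2, was left out, and it was 2 within slide 3 and 0 within slide 4. In the interaction none of the 47 was called, where 0.0103% of all genes were.

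Between genotypes, 17 of the 47 were called after LPS, 8 higher and 9 lower in KO, and 18 after saline, 9 higher and 9 lower. The background over genes was 47.1% after LPS and 50.8% after saline. Dnajb4, an HSP40 close to Dnajb1, was lower in KO by −1.50 ± 0.21 (limma adjusted p = 4.66e-05) after LPS and −1.55 ± 0.21 (adjusted p = 3.49e-05) after saline, with both of its other probes called the same way. Hspb8, the small chaperone that works with Bag3, was lower by −1.23 ± 0.20 and −1.47 ± 0.20. The HSP40 gene Dnajc7 was higher after LPS by 1.36 ± 0.14, and St13, which encodes the HSP70-interacting protein Hip, was lower by −1.30 ± 0.16 with neither of its 2 other probes called. Hsf1, the heat shock transcription factor, was higher after LPS by 1.28 ± 0.33 (adjusted p = 0.00528), with neither of its 2 other probes called. After saline, Unc45a, a myosin and HSP90 co-chaperone, was higher by 1.43 ± 0.29 with its other probe called the same way. Hspa12b was higher by 1.77 ± 0.41 and Hspb6 lower by −1.37 ± 0.24, Hspb6 being well above background on 1 of 4 KO saline arrays. These saline differences include WT saline replicates 1 and 2, and values of single genes without those arrays are not given here. Without those arrays 11 of the 47 were called after saline, 4 higher and 7 lower, where 36.6% of all tested probes were.

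For the endoplasmic reticulum, 30 chaperone and unfolded protein response genes were all tested. None was called for LPS in KO, where 3.41% of all genes were, or in WT, where 0% were, nor in the interaction. In limma, 4, 0 and 4 of them had an unadjusted p under 0.05 in these comparisons. Between genotypes, 9 were called after LPS, 4 higher and 5 lower in KO, and 11 after saline, 4 higher and 7 lower, against 47.1% and 50.8% of all genes. Ern1, the stress sensor IRE1, gave 1.98 ± 0.28 (limma adjusted p = 5e-05) after LPS and 1.94 ± 0.28 (adjusted p = 5.9e-05) after saline, from a probe well above background on 2 of 4 WT LPS and 3 of 4 WT saline arrays. Dnajc3, an inhibitor of eIF2α kinases, gave 1.56 ± 0.19 after LPS and 1.88 ± 0.19 after saline. After LPS 1 of its 3 other probes was called the same way and 1 the opposite way. Dnajb9, an ER partner of Hspa5, was lower by −1.15 ± 0.29 after LPS and −1.55 ± 0.29 after saline, with both other probes called the same way. Dnajc10, an ER disulfide reductase, was lower by −0.81 ± 0.23 and −1.05 ± 0.23, with 1 of 3 other probes called the opposite way in each. Sdf2l1 was lower after LPS by −1.09 ± 0.33 and Atf4 lower after saline by −1.44 ± 0.55. The saline differences of this list also include WT saline replicates 1 and 2. Without those arrays 7 of the 30 were called after saline, 2 higher and 5 lower, where 36.6% of all tested probes were.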

How the data were processed

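Members, companion lists and tests were chosen with earlier results of these data known. Spot intensity values on a linear scale were deposited per array; per the submitters' processing notes they were read with Agilent Feature Extraction 9.5, and per the file headers the processed signal was background-subtracted and detrended, with no scaling between arrays. The authors' deposited table of linear fold change (ratio) between group means is quoted by name, and their deposited group-mean log2 values were used only to count listed probes. Their 32 detection-call columns were left out.

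Here, log2 processed intensity minus the array's 75th percentile was fitted with limma 3.58.1 (R 4.3.3; Python 3 for tables) to 4 group means over 16 arrays, 1 value per probe. Outlier spots were set to missing, and no pseudocount was used. Probes well above background on at least 3 of 4 arrays of a group were kept. P-values were Benjamini-Hochberg adjusted over all 28347 probes and called under 0.05. In the companion lists, the genes named are all called for LPS in KO and the 5 largest called differences between genotypes. Alternatives varied background (normexp, offset 50), scaling, filter, probe choice, base composition, slides and arrays. Probe coordinates are mm9, and 24844 of 41174 probes were named through RefSeq accessions. The lowest median absolute difference between any 2 arrays was 0.121 (log2), so none was a copy. The number of arrays limits the precision.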

Additional observations from a re-analysis of the deposited data

Results flagged for a closer look

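In 6 of 67 groups of 4 arrays, 1 array lay far from the other 3, where chance alone gives about 1 in 20 groups. For Hspb1, KO saline replicate 1 had 2.13, against 0.31 to 0.40 on the other KO saline arrays. The same array was low for Hspa5, at 4.09 against 4.56 to 4.59, and for the middle probe of Hspa4, at −0.24 against 0.74 to 0.83. Replicate 4 of KO LPS was low for the 5′ probe of Hsp90ab1, at 1.78 against 2.17 to 2.22, and for the 5′ probe of Dnajb1, at −0.27 against 0.11 to 0.17. For the 5′ probe of Hspa1a, WT LPS replicate 3 had 2.91, against 1.84 to 1.92 on the other WT LPS arrays.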

How the results depend on the processing

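Results are limited by 4 arrays a group, by the scan session shared with genotype and by WT saline replicates 1 and 2. The count of chaperone probes called for LPS in KO was 0 in the main setting and 1 within slide 3, and 0 to 1 when 1 array at a time was left out. For KO against WT after saline it was 9, and 5 without WT saline replicates 1 and 2. After LPS it was 10, and 5 with 1 probe a gene, where 10 probes remain. Over all settings, single slides apart, counts were 5 to 12 after saline and 5 to 13 after LPS. Replicate numbers did not pair the arrays: of 24 same-numbered pairs, 2 had a correlation of deviations over 0.1. With the replicate block, 7 were called for KO against WT after saline, 9 after LPS, and 0 for LPS against saline in either genotype. For the list of other chaperones, the LPS count in KO of 4 was 2 with normexp, 2 within slide 3 and 0 within slide 4, and 1 to 4 with 1 array left out. In WT it was 1 without saline replicates 1 and 2, and 2 within slide 2. After saline the genotype count of 18 was 11 without those replicates. For the ER list, the saline count of 11 was 6 with base composition corrected, 6 with only the arrays compared and 7 without those replicates. The count of probe-pair tests with an adjusted p under 0.05, 0 of 16, was 10 with normexp, 11 with base composition corrected and 10 with outlier spots kept; 9 tests were at the smallest possible p before, and 10 there are enough to pass. Directions turned, with the probe called in at least 1 of the settings, for the second Hspa1a probe after saline (0.49, base composition), the 5′ Hspa1b probe (1.20 after saline and 0.015 after LPS, normexp) and the middle Hspa4 probe after saline (−0.70, base composition); the cause was not tested. Among differences called in neither setting, signs also turned in other cases, among them Hsph1 after saline (−0.22) and with LPS in WT (−0.34) without WT saline replicates 1 and 2, and with base composition corrected Hspa5 (0.29) and the 5′ Hspa4 probe (0.18) after saline, and Hspb1 (−0.24) after LPS. Normexp also moved the median of all probes by 0.52 for KO against WT after saline, by 0.16 after LPS and by −0.24 for LPS in KO.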
